A study of Homo sapiens with 6 samples.

Results

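ATP-binding cassette (ABC) transporters of subfamilies A and C were followed in ES2, a human cell line labelled as epithelial ovarian cancer. The 6 genes are ABCA1, ABCA4, ABCA10, ABCA13, ABCC2 and ABCC12. They were chosen by symbol from tables of 1113 entries, of which 771 carry a gene symbol, and all 6 were found. A list of the 48 human ABC transporter genes shared no other member with the tables, so these 6 are every ABC transporter gene listed. In the series, 3 libraries came from cells whose genotype is labelled as RUNX1-IT1 knockdown, made with an antisense oligonucleotide (the RUNX1-IT1 ASO), and 3 from cells given a control oligonucleotide (control ASO). RUNX1-IT1, a long RNA that encodes no protein, comes from an intron of RUNX1, and an antisense oligonucleotide pairs with its target RNA, often to have it degraded. All cells were grown in the same serum-containing medium, and total RNA went into mRNA-focused libraries. Replicates are numbered 1 to 3, and the labels do not say whether these were separate cultures, so the spread behind each p-value is that between these libraries and may be technical. All of it is 1 cell line, and the oligonucleotide sequences, dose and time of treatment are not given in the sources used here.

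ABC transporters are membrane proteins that use ATP to move substrates across a membrane. Subfamily A members mostly move lipids: ABCA1 passes cholesterol and phospholipid from cells to apolipoprotein A-I, the first step in forming high-density lipoprotein, and its loss causes Tangier disease. Subfamily C members of the multidrug resistance type export organic anions: ABCC2, also called MRP2, moves glutathione, glucuronide and sulfate conjugates, conjugated bilirubin and some drugs out of the cell, and its loss causes Dubin-Johnson syndrome. In tumour cells ABCC2 has been studied as an exporter of anticancer drugs.

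The values are CPM, reads of a gene scaled to a common library total, as the authors deposited them. Steps in the values put the libraries at 17070769 to 18699337 reads in the RUNX1-IT1 ASO group and 17269465 to 21220648 reads in the control ASO group. This takes 1 step as 1 read, which was not established for the control ASO libraries, whose smallest values lie at 2, 5 and 2 steps. Read numbers of that group, and the intervals and counting errors made from them, rest on this assumption. The listed entries summed to 3628 to 3894 CPM in RUNX1-IT1 ASO libraries and 10175 to 11070 CPM in control ASO libraries. Among entries with a symbol, 751 averaged lower under the RUNX1-IT1 ASO and 20 averaged higher, and all but 1 differed at least 2-fold, the smallest fold being 1.99. The tables thus look like a list picked for differing between the very samples compared here. A lower value of an ABC gene is a property that nearly all listed genes share, and its p-value is not independent evidence of a change. RUNX1-IT1 itself is not listed, so the knockdown was not checked here. Of 20 ovarian tumour and epithelial markers, PAX8 and ESR1 are listed, so the cell type label cannot be checked with these tables either. In bulk RNA, fewer cells that express a gene and less of its RNA per cell cannot be told apart.

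The sequences upstream of the genes are shown because they are where textbook regulation of ABCA1 is placed. RefSeq start sites were available for 5 of the 6 genes, and the 250 bases before the start are printed for the 3 of them that averaged 1 CPM or more. Capitals mark every match, on either strand, to 8 motifs: TATAAA (the core promoter box that binds TBP), GGGCGG (GC box), CACGTG (E-box), TGANTCA (AP-1 site), TGACGTCA (cAMP response element), TGTGGT (core of RUNX sites), TGACNNNGC (core of the antioxidant response element) and the DR4 repeat bound by the oxysterol receptor LXR, loosened so that the known ABCA1 element is covered. The build is GRCh38.p14, and each sequence is written 5′ to 3′ on the strand of the gene. The ABCA1 window lies on chr9:104928156-104928405 on the minus strand. The ABCC2 window lies on chr10:99782390-99782639 and the ABCA13 window on chr7:48171208-48171457, both on the plus strand. In GENCODE release 29 the ABCA1 gene begins at base 104928237, inside its window. The part of that window nearest the RefSeq start is thus within the gene in that annotation.
ABCA1: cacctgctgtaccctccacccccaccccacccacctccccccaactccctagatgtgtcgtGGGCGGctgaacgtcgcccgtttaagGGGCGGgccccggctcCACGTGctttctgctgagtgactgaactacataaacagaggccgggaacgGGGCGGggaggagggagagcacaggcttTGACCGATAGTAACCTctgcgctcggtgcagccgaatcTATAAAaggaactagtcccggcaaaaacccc
ABCC2: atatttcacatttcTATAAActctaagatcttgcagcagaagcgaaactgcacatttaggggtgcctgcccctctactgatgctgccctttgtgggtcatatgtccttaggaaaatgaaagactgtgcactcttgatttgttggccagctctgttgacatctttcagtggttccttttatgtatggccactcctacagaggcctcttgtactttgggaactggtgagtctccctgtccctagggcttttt
ABCA13: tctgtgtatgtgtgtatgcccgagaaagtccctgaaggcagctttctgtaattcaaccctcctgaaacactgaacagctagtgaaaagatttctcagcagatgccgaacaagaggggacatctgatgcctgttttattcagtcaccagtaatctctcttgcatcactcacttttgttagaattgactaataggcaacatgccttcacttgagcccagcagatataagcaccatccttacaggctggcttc

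The ABCA1 window held the TATAAA motif at bases -31 to -26, 3 GC boxes, 1 E-box at -147 to -142 and the LXR-type repeat at -69 to -54, where base -1 is the last before the start. Over 35116 annotated start sites, windows of the same length held TATAAA in 10.7% of cases, the GC box in 42.6%, the E-box in 6.34% and the loosened LXR element in 0.214%. The LXR pattern was loosened to cover the known ABCA1 element. Its match in ABCA1 was thus fixed in advance, and the low share does not make it a finding. The ABCC2 window held TATAAA once, at -236 to -231, far from the start, and the ABCA13 window held none of the 8 motifs. The first ABCC12 start site had TGTGGT at -28 to -23, a motif found in 10.98% of windows, and ABCC12 start sites 2 and 3 held no match. For ABCA10, start site 1 had TATAAA on the opposite strand at -34 to -29. Start site 2 of ABCA10 had TGANTCA at -241 to -235, a motif found in 6.57% of windows. The windows were rich in G and C for ABCA1, at 61.6%, against 45.6% for ABCC2 and 44.8% for ABCA13. These are letter matches and say nothing of binding in ES2 cells.

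**Figure D1:**
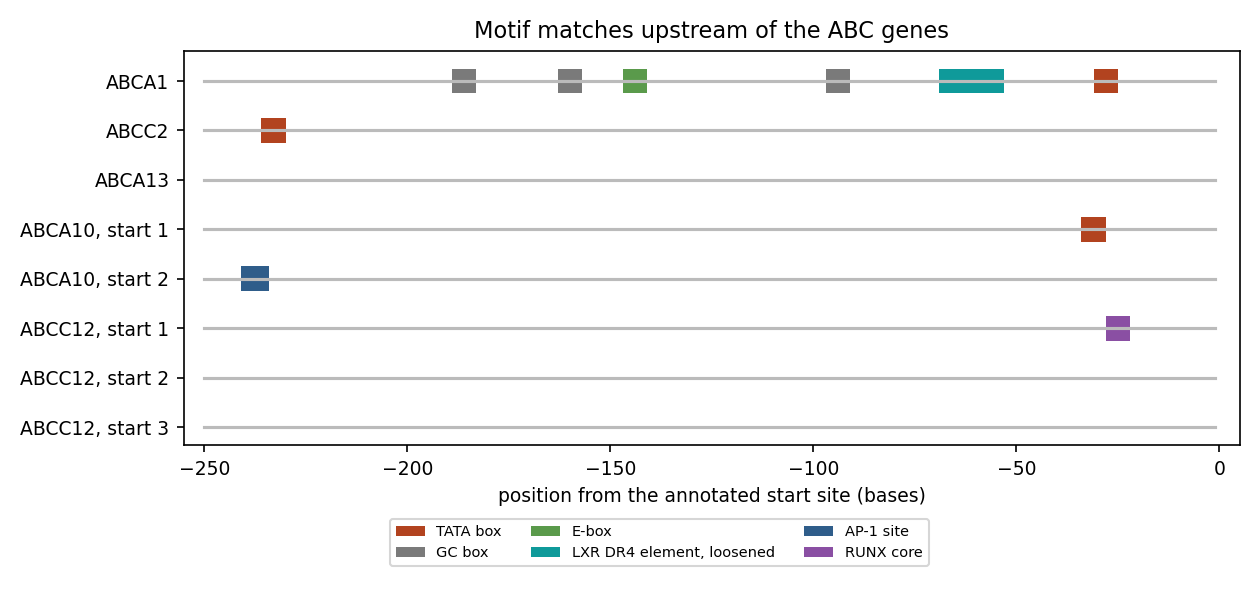
Matches to the motifs in the 250 bases before each RefSeq start site, on the x axis as distance from the start, with 1 line per start site and colours for the motif. ABCA1 holds 6 matches, among them 3 GC boxes, and no other window holds more than 1.

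ABCA1, the cholesterol exporter, was the most abundant of the 6 and fell under the RUNX1-IT1 ASO. It stood at 18.9, 18.2 and 17.1 CPM in the RUNX1-IT1 ASO libraries (replicates 1, 2 and 3) and at 55.0, 49.9 and 43.4 CPM in control ASO libraries 1, 2 and 3. The groups did not overlap, and the lowest control was 2.29 times the highest RUNX1-IT1 ASO value. The means were 18.1 ± 0.921 CPM in RUNX1-IT1 ASO libraries and 49.4 ± 5.81 CPM in control ASO libraries (SD, n = 3 each), a 2.73-fold lower level. ABCA1 fell by 1.40 ± 0.10 on the log2(CPM + 1) scale, where changes of weakly expressed genes come out too small (SE, limma, Benjamini-Hochberg adjusted p = 2.81e-08).

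ABCA4 moves retinoid-phospholipid adducts across photoreceptor disc membranes and is the gene of Stargardt disease, and it was measured at a low level here. Its values were 1.02, 0.860 and 0.879 CPM in RUNX1-IT1 ASO libraries 1, 2 and 3, against 2.89, 3.36 and 2.17 CPM in control ASO libraries 1, 2 and 3. The groups did not overlap, and the RUNX1-IT1 ASO libraries lay close together while the controls spread more widely. At 3.06-fold lower by the means, ABCA4 fell by 0.98 ± 0.14 on the log2(CPM + 1) scale (limma, adjusted p = 1.91e-05). With a pseudocount of 0.1 in place of 1 its log2 change was -1.49, slightly more than that of ABCA1 at -1.44, so the order of these genes depends on the scale.

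ABCA13 encodes an unusually large subfamily A protein whose substrates are less well known. It stood at 0.695, 1.40 and 1.29 CPM in the RUNX1-IT1 ASO libraries (replicates 1, 2 and 3) and at 2.94, 2.43 and 1.65 CPM in control ASO libraries 1, 2 and 3. The groups came nearest to each other for this gene: the lowest control was 1.18 times the highest RUNX1-IT1 ASO library. ABCA13 fell by 0.65 ± 0.18 on the log2(CPM + 1) scale (limma, adjusted p = 0.00281), a 2.08-fold lower mean. Of the entries lower under the RUNX1-IT1 ASO, 28 had a smaller fold, so ABCA13 lies just inside the 2-fold edge of the tables, and the next entry above it stood at 2.08-fold as well.

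ABCA10 belongs to a cluster of subfamily A genes on chromosome 17, and its role is little known. It was at 0.321, 0.269 and 0.234 CPM in RUNX1-IT1 ASO libraries 1, 2 and 3 and at 0.698, 0.926 and 1.37 CPM in control ASO libraries 1, 2 and 3. That is 4 to 6 reads per RUNX1-IT1 ASO library and 14 to 29 per control ASO library, as the steps in the values imply. The groups did not overlap, with a 3.63-fold lower mean. Its mean over all libraries was under 1 CPM, so it was not in the main fit, and the exact two-sided permutation test gave p = 0.1, the smallest that 3 libraries against 3 allow.

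ABCC2, the organic anion exporter, fell to 8.61, 6.56 and 7.21 CPM in RUNX1-IT1 ASO libraries 1, 2 and 3, against 16.4, 15.9 and 16.3 CPM in control ASO libraries 1, 2 and 3. The control libraries differed little from one another, and the RUNX1-IT1 ASO libraries all lay well below them. The means were 7.46 ± 1.05 CPM in RUNX1-IT1 ASO libraries and 16.2 ± 0.268 CPM in control ASO libraries (SD, n = 3 each), 2.18-fold lower. ABCC2 fell by 1.03 ± 0.11 on the log2(CPM + 1) scale (limma, adjusted p = 1.06e-06).

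ABCC12, also called MRP9, is a subfamily C gene of little known function beside ABCC11 on chromosome 16. It was nearly undetected under the RUNX1-IT1 ASO, at 0.0530, 0.0540 and 0.117 CPM in replicates 1, 2 and 3, which is 1 to 2 reads per library and under a floor of 3 reads (0.160 to 0.176 CPM). Control ASO replicates 1, 2 and 3 stood at 0.747, 0.579 and 1.23 CPM, or 10 to 26 reads if 1 step is 1 read. Summed over the libraries, 4 reads in the RUNX1-IT1 ASO group and 51 in the control ASO group give an 11.8-fold lower level per read sequenced, with an exact 95% interval of 4.35 to 45.1 that covers counting error only and holds under the same assumption. The group means gave 11.4-fold, and 38 of the 771 entries with a symbol had a larger fold. ABCC12 was also under 1 CPM on average and was left out of the main fit (exact two-sided permutation test, p = 0.1, the smallest possible).

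**Figure D2:**
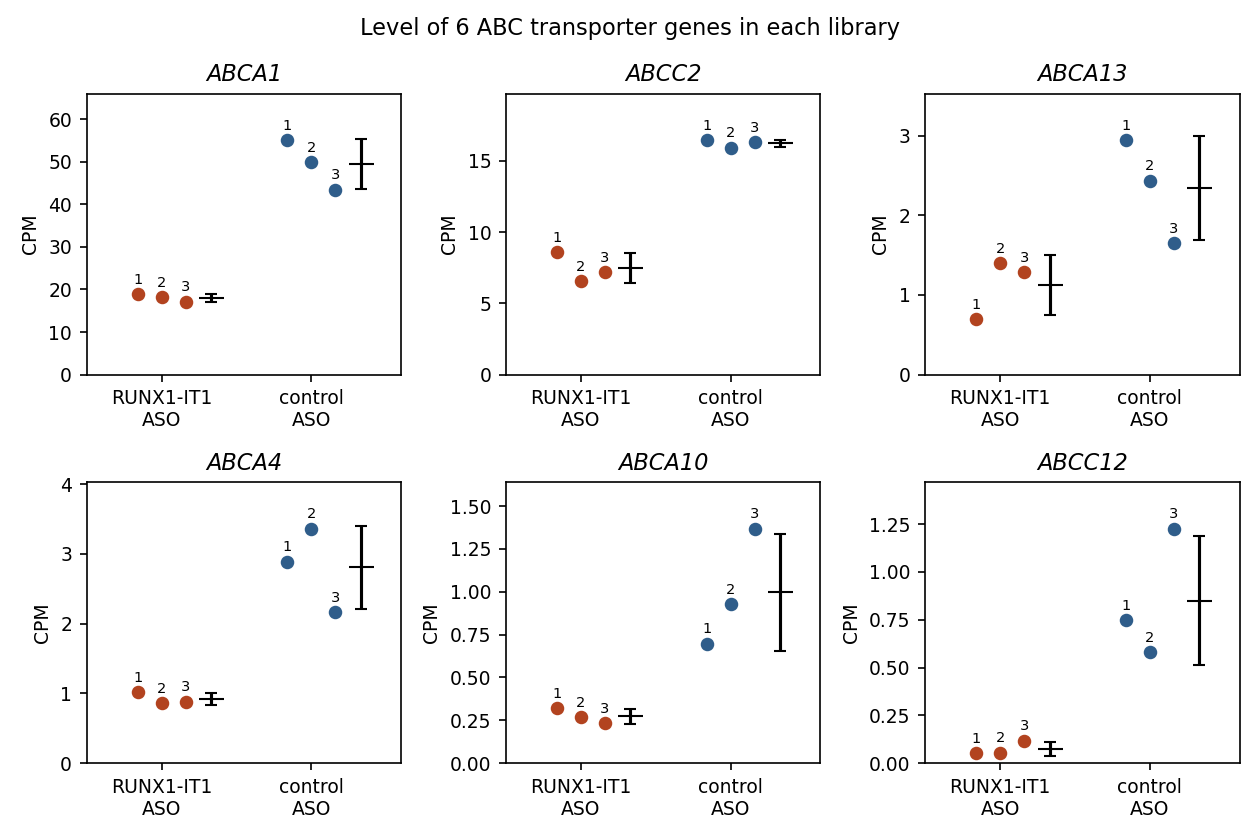
CPM of each gene in each library (points, numbered by replicate) on a linear axis that starts at 0, with the mean and SD of the 3 libraries as a black bar beside them. For all 6 genes the RUNX1-IT1 ASO libraries lie below the control ASO libraries, with the narrowest gap at ABCA13 and the widest, by ratio, at ABCC12.

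All 4 tested ABC genes were called lower, where limma called 97.5% of the 489 tested genes lower and 2.04% higher at an adjusted p under 0.05. All 6 had non-overlapping groups, as had 95.7% of the 771 entries with a symbol and 97.1% of the 489 tested genes. Both counts are near the background of these tables and are not a result about ABC transporters. With no filter on low values limma called all 6 lower, beside 97.3% of 771 genes lower and 2.46% higher, with ABCA10 at -0.63 ± 0.15 (adjusted p = 0.000894) and ABCC12 at -0.77 ± 0.16 (adjusted p = 0.000303). The median log2 change of the 4 tested ABC genes was -1.005, beside -1.11 over all tested genes, the middle 50% of which lay between -1.43 and -0.88.

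By fold, the 6 genes were spread over most of the range of the tables. The median fold of the entries with a symbol was 3.25, and the middle 50% lay between 2.45 and 5.11. A larger fold than that of the gene was found in 93.6% of entries for ABCA13, 88.3% for ABCC2, 65.6% for ABCA1, 55.5% for ABCA4, 42.7% for ABCA10 and 4.93% for ABCC12. The more abundant pair, ABCA1 and ABCC2, therefore lay on the side of smaller folds, and the least abundant gene, ABCC12, on the side of larger ones. ABCA13 did not follow this order, with the smallest fold of the 6 at a mean of 1.73 CPM over all libraries. Folds of genes measured with a few reads are less certain, as the interval of ABCC12 shows.

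**Figure D3:**
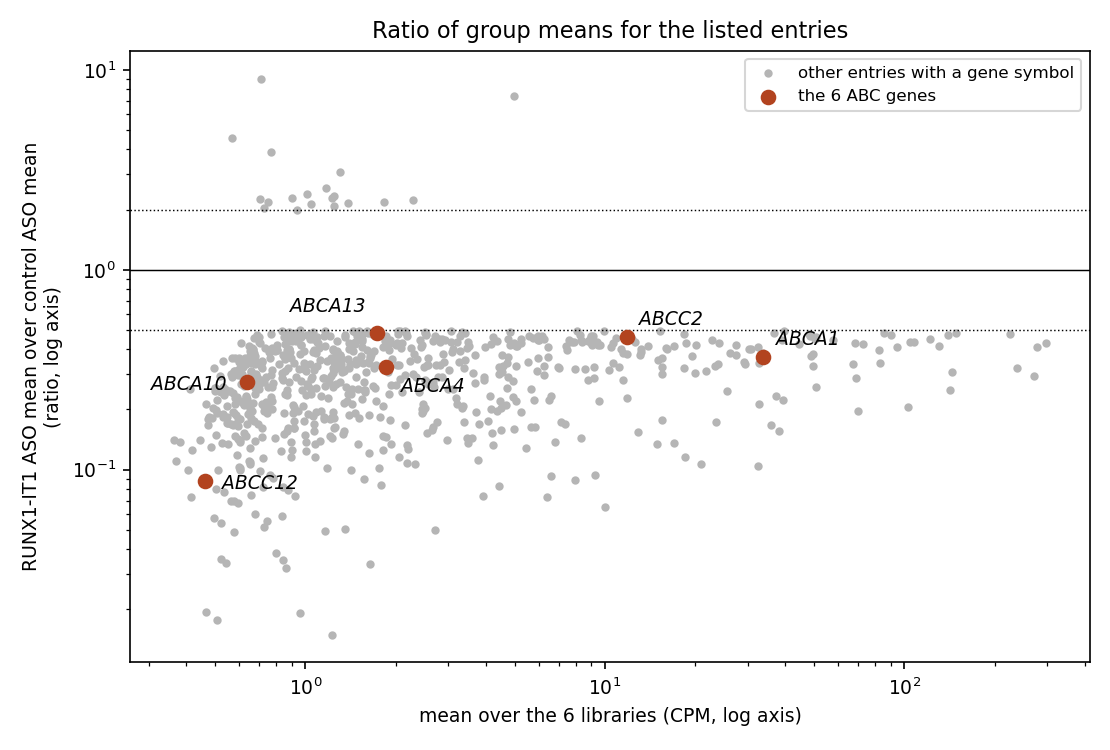
Ratio of the RUNX1-IT1 ASO mean to the control ASO mean (log axis) against the mean CPM over the 6 libraries (log axis) for entries with a gene symbol, with the ABC genes in red and dotted lines at a 2-fold difference. Entries at 0 in every library of a group are not drawn. ABCA13 and ABCC2 sit just under the lower dotted line, and ABCC12 lies far below it at the low end of expression.

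Ratios of 1 gene to another within a library do not depend on how libraries were scaled. ABCC2 stood at 45.5, 36.0 and 42.1% of ABCA1 in RUNX1-IT1 ASO replicates 1, 2 and 3, against 29.9, 31.9 and 37.6% in control ASO replicates 1, 2 and 3. The groups overlapped, and the exact two-sided permutation test gave p = 0.2. ABCC12 stood at 0.280, 0.296 and 0.684% of ABCA1 in RUNX1-IT1 ASO libraries and at 1.36, 1.16 and 2.82% in control ASO libraries, with no overlap (exact permutation p = 0.1, the smallest possible). Among the other entries with a symbol, including the ABC genes, 30.6% lay wholly lower relative to ABCA1 in this way and 6.23% wholly higher. ABCA13, ABCA4 and ABCA10 overlapped between the groups relative to ABCA1 (exact permutation p = 0.4, 0.5 and 0.5). Over the 5 ratios the adjusted p was 0.5 for each, and with 3 libraries against 3 no ratio could have passed. Unequal decreases among the 6 genes were therefore not shown by this test.

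Levels of different genes can be compared only per length, here CPM per kilobase of annotated exons. In control ASO libraries ABCA1 stood at 4.35 ± 0.512 and ABCC2 at 2.07 ± 0.0342 CPM per kilobase (SD, n = 3 each). ABCA4 followed at 0.329 ± 0.0703, then ABCA13 at 0.123 ± 0.0341, ABCA10 at 0.119 ± 0.0405 and ABCC12 at 0.0978 ± 0.0385 CPM per kilobase, and these last 3 did not differ beyond their spread. In RUNX1-IT1 ASO libraries ABCA1 stood at 1.59 ± 0.0811 and ABCC2 at 0.952 ± 0.134 CPM per kilobase, ABCA4 at 0.108 ± 0.00998, ABCA13 at 0.0591 ± 0.0198, ABCA10 at 0.0327 ± 0.00521 and ABCC12 at 0.00858 ± 0.00421. ABCA1 alone made up 63.8 to 66.6% of the summed CPM of the 6 genes in RUNX1-IT1 ASO libraries and 65.6 to 69.9% in control ASO libraries. The 6 genes together made up 0.689 to 0.817% of the listed CPM in RUNX1-IT1 ASO libraries and 0.597 to 0.729% in control ASO libraries.

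The control libraries did not rank the genes alike. Control ASO replicate 3 was the lowest control for ABCA1, ABCA4 and ABCA13 and the highest for ABCA10 and ABCC12. The coefficient of variation of ABCA1 was 5.09% between RUNX1-IT1 ASO libraries and 11.8% between control ASO libraries, where counting reads alone, with 1 step taken as 1 read, would give 5.52% and 3.22%. For ABCC2 it was 14.1% and 1.65% in the 2 groups, against 8.60% and 5.62% from counting. The close agreement of the ABCC2 controls is thus tighter than counting alone would give on average for 3 libraries. ABCA13 varied by 33.6% between RUNX1-IT1 ASO libraries and 27.8% between control ASO libraries, with 22.2% and 14.9% from counting. ABCA4, ABCA10 and ABCC12 varied less than counting error in the RUNX1-IT1 ASO group and more in the control ASO group.

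**Figure D4:**
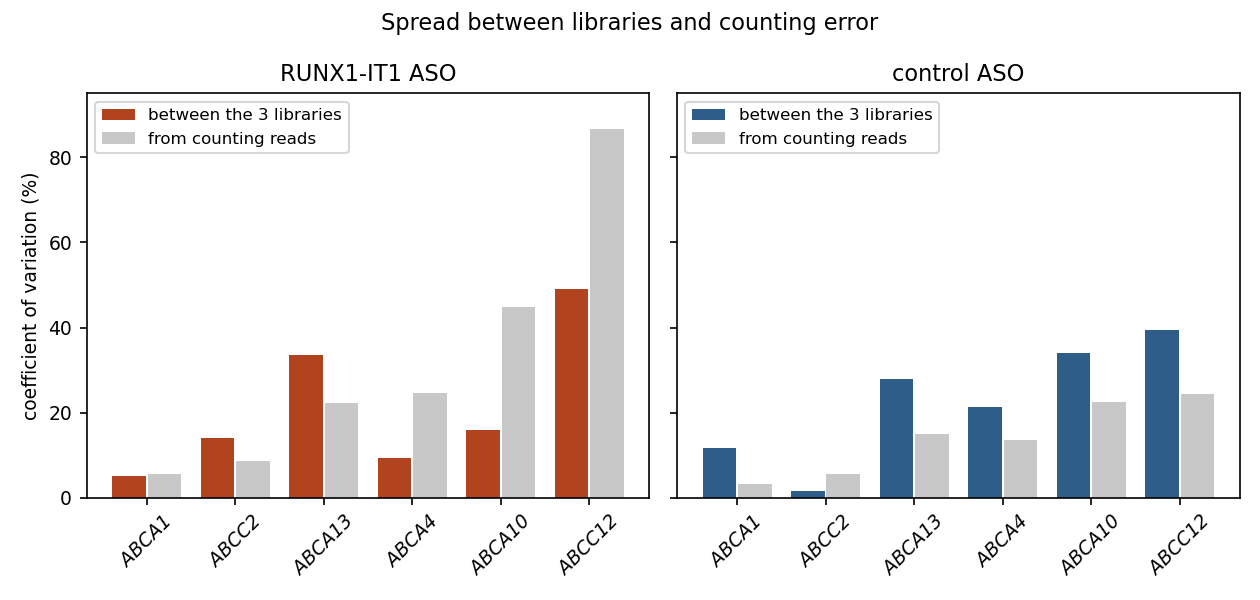
Coefficient of variation between the 3 libraries of each group (coloured bars) beside that expected from counting reads (grey bars), in percent, with RUNX1-IT1 ASO libraries in the left panel and control ASO libraries in the right. In the control group every gene but ABCC2 varied more than counting gives.

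The 6 genes share features that the choice by symbol did not use. In GENCODE release 29 on GRCh38, ABCA1 spans chr9:104781002-104928237, ABCC2 chr10:99782640-99852594, ABCA13 chr7:48171458-48647496, ABCA4 chr1:93992835-94121132, ABCA10 chr17:69147214-69244846 and ABCC12 chr16:48081006-48156018. They are long genes of many exons: the annotated transcript with the most exons has 50 in ABCA1, 50 in ABCA4, 62 in ABCA13, 41 in ABCA10, 32 in ABCC2 and 29 in ABCC12. Their spans run from 70.0 kb for ABCC2 to 476 kb for ABCA13, while the median over the 707 listed genes matched by symbol was 15.7 kb. Of those 707 genes, 1.70% were longer than ABCA13 and 19.1% longer than ABCC2.

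Neighbouring ABC genes are not listed, so no value of them is analysed here. ABCA6 lies 5.33 kb from ABCA10 and ABCA9 lies 86.2 kb from it, and ABCC11 lies 10.9 kb from ABCC12. ABCA5 overlaps ABCA10 in the annotation on the same strand, and genes on the opposite strand overlap ABCA1, ABCA10 and ABCC2. The strand setting of the counting is not given in the sources used here, so reads of such overlaps cannot be told apart. Within 500 kb of any of the 6 genes, the tables list PKD1L1, a polycystin family gene, and LINC00525, a non-coding RNA, both near ABCA13. PKD1L1, 223 kb away, stood at 0.868 ± 0.153 CPM in RUNX1-IT1 ASO libraries and 1.85 ± 0.154 CPM in control ASO libraries (SD, n = 3 each; limma, log2 change -0.61, adjusted p = 0.000384). LINC00525, 405 kb away, stood at 0.273 ± 0.10 CPM in RUNX1-IT1 ASO libraries and 0.919 ± 0.458 CPM in control ASO libraries and was too low for the fit.

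Genes of a broad list built around ABCA1 were also mostly absent from the tables. Of 44 cholesterol export and LXR-regulated genes 5 were listed, ABCA1 among them, and all 4 tested fell, where 97.5% of all 489 tested genes did. Their median log2 change was -1.28 beside -1.11 over all tested genes, and the count is that of the background. MYLIP, an LXR target that marks the low-density lipoprotein receptor for degradation, stood at 3.54 ± 0.202 CPM in RUNX1-IT1 ASO libraries and 7.64 ± 1.70 CPM in control ASO libraries (SD, n = 3 each; limma, adjusted p = 3.99e-05). APOE, an apolipoprotein that also accepts cholesterol, was at 0.0530 to 0.269 CPM in RUNX1-IT1 ASO libraries and 0.548 to 1.32 CPM in control ASO libraries and was too low for the fit. PPARGC1A, a coactivator of mitochondrial biogenesis, had a log2 change of -1.35 and ANGPTL4, an inhibitor of lipoprotein lipase, one of -1.21. Neither PPARGC1A nor ANGPTL4 exports cholesterol, so the median describes the list and not 1 pathway.

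For ABCC2, the list of 49 organic anion efflux, NRF2 and xenobiotic receptor genes shared 6 genes with the tables, and the 5 that were tested all fell, at a median of -1.04. Over all tested genes 97.5% fell and the median was -1.11, so this count too is that of the background. AHR, the aryl hydrocarbon receptor, stood at 26.3 ± 2.64 CPM in RUNX1-IT1 ASO libraries and 53.1 ± 0.796 CPM in control ASO libraries (SD, n = 3 each; limma, adjusted p = 2.34e-07). CYP1B1, a cytochrome gene that AHR induces, stood at 0.460 ± 0.240 CPM in RUNX1-IT1 ASO libraries and 1.23 ± 0.314 CPM in control ASO libraries and was too low for the fit. HMOX1, TXNIP and OSGIN1, at log2 changes of -1.04, -1.19 and -1.07, were the other members that fell. The list is broad and does not stand for 1 pathway: TXNIP, an alpha-arrestin, is neither an anion exporter nor a xenobiotic receptor. ABCC2 itself stood at -1.03.

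Other membrane transporters were listed too. Of 16 listed solute carriers, which move substrates without ATP, 8 were tested, 7 fell and 1 rose, with a median of -1.23. Over all 489 tested genes 97.5% fell, 2.04% rose and the median was -1.11, so the split is no result about solute carriers. SLC3A2, the heavy chain of amino acid exchangers, stood at 161 ± 17.8 CPM in RUNX1-IT1 ASO libraries and 391 ± 23.5 CPM in control ASO libraries (SD, n = 3 each). SLC30A1, a zinc exporter, had a log2 change of -1.13, SLC25A25, a mitochondrial ATP-Mg carrier, one of -1.36 and SLC12A7, a potassium-chloride cotransporter, one of -1.86. SLC2A10, a glucose transporter family member and the 1 that rose, named after its value was seen, stood at 1.68 ± 0.321 CPM in RUNX1-IT1 ASO libraries and 0.659 ± 0.272 CPM in control ASO libraries (limma, adjusted p = 0.000497). ATP2A1, a calcium pump of the sarcoplasmic reticulum, was the 1 P-type ATPase listed and had a log2 change of -0.83.

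Markers of tissues in which these transporters are best known were few. No hepatocyte marker of 20 was listed, though ABCC2 is a transporter of the hepatocyte canalicular membrane. Of 21 retina and visual cycle markers only BEST1, a chloride channel of the retinal pigment epithelium, was listed, at 0.267 to 0.753 CPM in RUNX1-IT1 ASO libraries and 3.49 to 4.14 CPM in control ASO libraries. Of 16 macrophage and leukocyte markers CD163 and ITGAM were listed, with summed levels of 1.604 to 1.875 CPM in RUNX1-IT1 ASO libraries and 11.1 to 11.9 CPM in control ASO libraries. Of the ovarian markers, PAX8 and ESR1 summed to 3.12 to 4.33 CPM in RUNX1-IT1 ASO libraries and 8.77 to 10.7 CPM in control ASO libraries. No fibroblast marker of 11 and no endothelial marker of 10 was listed. The listed entries look picked for differing between the groups, so an unlisted marker may still be expressed. The marker lists are short, and other genes of these cell types may be listed. All listed markers named here were lower under the RUNX1-IT1 ASO, like nearly all entries, and their part in the levels of the ABC genes was not tested.

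The tested genes most like each ABC gene were taken by the smallest root mean square difference of log2(CPM + 1) over the 6 libraries, after each gene's own mean was subtracted. For ABCC2 the nearest was AHR, at 0.0341 against a median of 0.222 over all tested genes, followed by OTOGL and LINC02154 at 0.0381 and 0.0518. For ABCA1 they were IL4I1, IRAK2 and CGNL1, at 0.0856 to 0.0880 against a median of 0.268. For ABCA13 they were B3GNT4, LINC02029 and SIPA1L2, at 0.121 to 0.174, and for ABCA4 LOC101928583, MIR6822 and ZBTB20, at 0.0890 to 0.0960. No ABC gene was among the 3 nearest of another, and the closest pair, ABCA4 and ABCC2, differed by 0.160. The likeness holds on the log2(CPM + 1) scale, where changes of weakly expressed genes come out too small. Genes of unlike fold can thus lie near each other. ABCC2 averaged 7.46 CPM under the RUNX1-IT1 ASO and 16.2 CPM under the control ASO. In the same order AHR averaged 26.3 and 53.1 CPM, OTOGL 0.533 and 2.24 CPM and LINC02154 0.331 and 1.79 CPM. The libraries are the same for every gene, and nearly all genes were lower in the same 3, so such likeness is a description only.

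The libraries can also be rescaled to equal totals over the listed entries, which moves the median log2 change of all tested genes to -0.06 and centres the listed genes by construction. After this limma called 24.1% of genes lower and 8.79% higher. ABCA1 stood at 0.05 (adjusted p = 0.722), ABCA13 at 0.27 (adjusted p = 0.312) and ABCA4 at -0.07 (adjusted p = 0.764). ABCC2 stood at 0.34 (adjusted p = 0.0477) and was the 1 ABC gene called, as higher, which here means a smaller decrease than that of the listed total. The ABC genes thus did not keep their calls as lower under this scaling. The gene lists kept some calls and lost others. In the list of cholesterol export and LXR-regulated genes the 4 tested were ABCA1, MYLIP, PPARGC1A and ANGPTL4, and none was called (0 lower and 0 higher, median 0.12). Of the 5 tested genes in the broad list of organic anion efflux, NRF2 and xenobiotic receptor genes, 4 were called higher (median 0.34). These were ABCC2, HMOX1, TXNIP and AHR. OSGIN1 was not called (limma, adjusted p = 0.0755). Of the 8 tested solute carriers 2 were called lower and 3 higher (median 0.04). BEST1 and CD163 were still called lower, at -0.93 and -0.91.

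**Figure D5:**
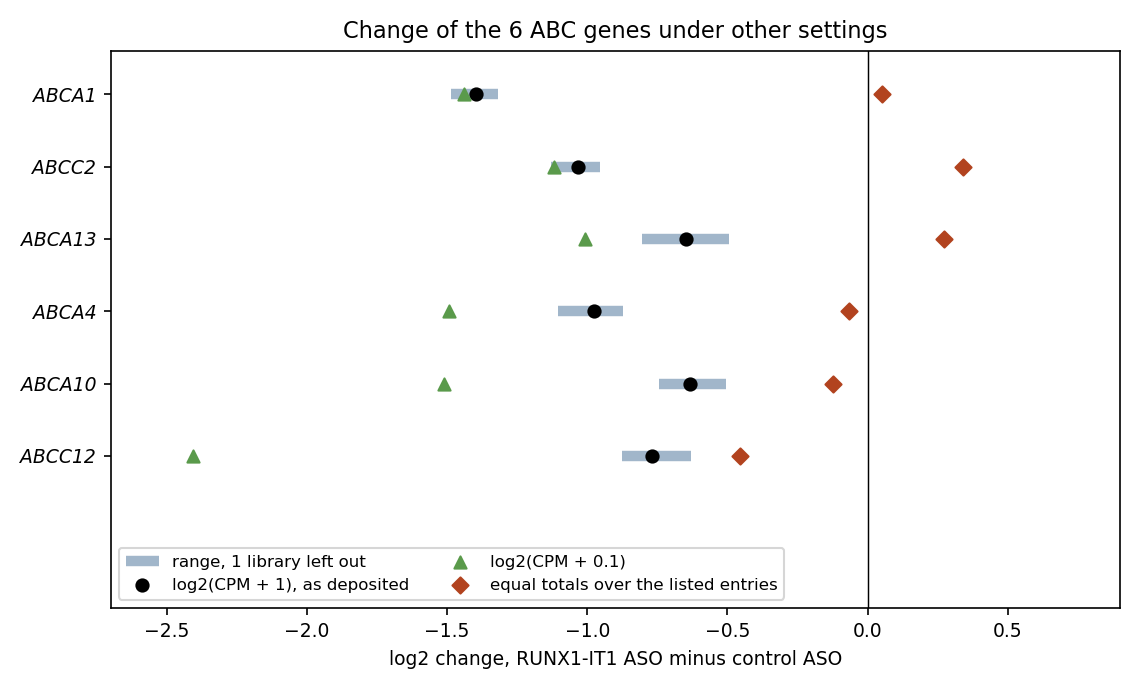
Log2 change of each ABC gene, RUNX1-IT1 ASO minus control ASO, as deposited (black), with a smaller pseudocount (triangles), after rescaling to equal totals (diamonds) and as the range when 1 library is left out (blue bar). Left-out libraries keep every gene below 0, while rescaling puts ABCA1, ABCC2 and ABCA13 above 0 and leaves ABCA4, ABCA10 and ABCC12 below.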

How the data were processed

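The submitters' processing notes name FastQC 0.11.9, fastp 0.22.0 and the build GRCh38. The sources used here do not give the aligner, counting tool, annotation, strand setting or gene filter. The deposited values are CPM, a unit read from evenly spaced steps in the values. All values lay within 0.001 CPM of a whole multiple of 1 step per library, from which reads and totals are implied if 1 step is 1 read. That was not established for the control ASO libraries (smallest values at 2, 5 and 2 steps), so no count test was run. Entries without a symbol (342 of 1113) were kept out of the main fit.

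In R 4.3.3, limma 3.58.1 (mean-variance trend, group as the only term) was fitted to log2(CPM + 1) for 489 genes that have a symbol and average 1 CPM or more, with Benjamini-Hochberg adjustment over all of them and a threshold of 0.05. It was tested on simulated data in which as many genes rose as fell and none was picked for differing. The listed entries are unlike that, so the test does not bear on the calls made here. Exact permutation tests used scipy 1.17.1. Pairs of replicates differed beyond sampling noise (chi-square per degree of freedom 1.97 to 2.79 over implied reads). Alternatives were other pseudocounts, filters, scalings, a replicate block and each library left out. The ABC genes and gene lists were chosen with earlier results of these data known. Named genes are the 6, up to 4 genes per list with the smallest adjusted p, the 3 nearest profiles per tested gene and listed genes within 500 kb. Other genes named (OSGIN1, APOE, CYP1B1, ITGAM, SLC2A10) were chosen after their values were seen.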

Additional observations from a re-analysis of the deposited data

How the results depend on the processing

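With no filter on low values 750 genes were called lower and 19 higher, and among genes averaging 5 CPM or more 165 and 0, of which 2 were ABC genes, the only 2 tested there. At that filter all 165 genes tested had an unadjusted p under 0.05 in limma, none of them higher. With entries without a symbol included, 20 were called higher. With totals made equal, 118 genes came out lower and 43 higher, 0 ABC genes were called lower, and ABCA1, ABCC2, ABCA13 and ABCA4 stood at 0.053, 0.34, 0.27 and -0.066. ABCA10 and ABCC12 stood at -0.12 and -0.45 after rescaling and at -1.51 and -2.41 with a pseudocount of 0.1, against -0.63 and -0.77. Leaving out each library kept all 4 tested ABC genes called lower, at -1.48 to -1.32 for ABCA1, -1.13 to -0.96 for ABCC2, -0.81 to -0.49 for ABCA13 and -1.10 to -0.87 for ABCA4, with 477 to 478 genes called lower and 10 to 11 higher. ABCA10 and ABCC12 ranged over -0.74 to -0.51 and -0.88 to -0.63. The entries look picked for differing between these same libraries, so nearly all of them share this stability. It is not independent evidence for the ABC genes. Same-numbered libraries did not deviate together (r = -0.24, -0.10 and -0.02 across genes), and differently numbered ones ranged over -0.13 to 0.18. With 3 libraries per group this cannot tell whether same-numbered libraries shared a culture or a day. The replicate block gave 478 lower and 10 higher calls and changed no ABC call, with ABCA13 at adjusted p = 0.00517 (limma), and ABCA13 without RUNX1-IT1 ASO replicate 1 stood at adjusted p = 0.0187. Divided by the mean transcript length in place of all exons, control ASO levels were 14.4 (ABCA1), 8.18 (ABCC2), 0.387 (ABCA13), 1.31 (ABCA4), 0.399 (ABCA10) and 0.310 (ABCC12) CPM per kilobase, and ABCA10 then stood above ABCA13. The count test planned for recovered reads was not run. Depth limits ABCC12 most, at 1 to 2 reads per RUNX1-IT1 ASO library.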
